A study of Homo sapiens with 21 samples.

Results

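The RAB genes encode the Rab family of small GTPases, and they are described here across HEY cells that received mir-429 or a control miRNA. Members were the genes whose symbol in the array's platform annotation consisted of RAB, a number and at most 1 further letter. Probe sets with 1 symbol were used, and each gene was represented by its brightest probe set, the one with the highest mean over all arrays. This gave 57 RAB genes of 19775 genes on the array. Testing required this probe set to exceed the median of its array on 3 or more of the 21 arrays; 47 of the 57 passed, among 12879 genes tested. The 10 others, RAB3C, RAB4B, RAB7B, RAB25, RAB36, RAB37, RAB39A, RAB39B, RAB40A and RAB42, lay above the median on 0 arrays. RAB34, RAB6C and RAB6D are read only by probe sets shared with other symbols and were not members.

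HEY is a human ovarian carcinoma line, and mRNA was measured on HG-U133 Plus 2.0 arrays, which carry several short-oligonucleotide probe sets for many genes. The 7 groups held 3 arrays each. One group was left untransfected and taken at 0 h, 3 received a synthetic negative control miRNA, and 3 received mir-429; transfected groups were harvested after 24, 48 or 144 h. All transfected cells had received Lipofectamine 2000. No untransfected cells were sampled at the later times, so time in culture and transfection cannot be told apart in comparisons with them. The replicates are labelled biological, with no word on whether they were separate cultures; p-values therefore reflect variation among these arrays alone, which may be technical. All values below are log2 expression or log2 differences, given as mean difference ± SE with n = 3 per group unless stated.

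Rab proteins switch between a GTP-bound form, which recruits effectors to a membrane, and a GDP-bound form, which is extracted into the cytosol. Exchange factors load GTP, GTPase-activating proteins of the TBC family end the signal, and each Rab marks a particular compartment, from the endoplasmic reticulum to recycling endosomes and secretory vesicles. mir-429 is a member of the miR-200 family, known for holding epithelial cells in their state through repression of the transcription factors ZEB1 and ZEB2. Bases 2 to 8 of a miRNA, its seed, pair with target mRNAs. The mature family members are shown because they fall into 2 seed groups, with the seed in capitals (5′ to 3′, RefSeq, GRCh38.p14; miR-429 lies at chr1:1169055-1169076 on the plus strand).
hsa-miR-429: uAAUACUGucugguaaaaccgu
hsa-miR-200b-3p: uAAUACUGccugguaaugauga
hsa-miR-200c-3p: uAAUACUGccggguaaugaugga
hsa-miR-200a-3p: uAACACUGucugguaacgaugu
hsa-miR-141-3p: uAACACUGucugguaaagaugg
The transfected mir-429 shares its seed with miR-200b-3p and miR-200c-3p, and the seeds of miR-200a-3p and miR-141-3p differ from it at 1 base. Target sites in RAB transcripts were not examined here.

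The transfection check behaved as follows. ZEB1 fell with mir-429 at 24 and 48 h by 1.29 ± 0.15 and 1.72 ± 0.15 and was at -0.14 ± 0.15 at 144 h. ZEB2 was at -0.43 ± 0.18 at 24 h (adjusted p = 0.0894), fell by 1.12 ± 0.18 at 48 h and was at -0.33 ± 0.18 at 144 h. The keratins KRT8 and KRT18 and vimentin (VIM), expected of this carcinoma line, lay above the median on all 21 arrays. The epithelial markers CDH1, EPCAM and CLDN4 lay above it on 0 arrays and ESRP1 on 21. Of 4 leukocyte markers present, 3 lay above it on 0 arrays and CD14 on 1. Of 5 endothelial markers, CDH5 lay above it on 21 arrays and KDR on 19. The mean of the 5 came to 4.43 with mir-429 and 4.68 with control miRNA at 24 h. It was 4.43 and 4.84 at 48 h, and 4.99 and 5.01 at 144 h. ESRP1 was higher with mir-429 by 0.93, 2.92 and 0.89 at the 3 times. The part of these marker differences in the RAB results was not tested. RNA quality moved with the groups. The difference between 3' and 5' probe sets of GAPDH and ACTB, which rises when 5' signal is lost, stood at 2.87 ± 0.36 (SD, n = 3) with mir-429 and 4.21 ± 0.21 with control miRNA at 24 h. At 48 h it was 8.55 ± 0.15 and 7.83 ± 0.62, and at 144 h 3.35 ± 0.13 and 3.90 ± 0.48. With this difference as a covariate, 3, 8 and 1 RAB genes passed the test of mir-429 against control at 24, 48 and 144 h, in place of the 12, 9 and 4 given next, and 4.77%, 16.7% and 4.54% of all genes did.

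At 24 h, 6 RAB genes rose and 6 fell with mir-429, which was 25.5% of the 47 tested. Of all genes tested 26.6% were called (limma, Benjamini-Hochberg adjusted p below 0.05 over 12879 genes), so the share among RAB genes lay near the background; 15% of all genes were called higher and 11.6% lower. At 48 h, 2 rose and 7 fell, 19.1% against 20.6% of all genes (9.32% higher and 11.3% lower). At 144 h, 1 rose and 3 fell, 8.51% against 5.85% (1.48% higher and 4.37% lower). The median RAB change was 0.05, -0.06 and -0.00 at the 3 times, and that of all genes tested -0.02, -0.01 and -0.04. Members moved in both directions at each time. In all, 19 members were called at any single time, 0 at all 3 times and 28 at none. The 12 genes called at 24 h and the 9 called at 48 h had 4 in common, RAB3B, RAB5C, RAB18 and RAB24 (33.3% and 44.4% of the lists), each with the same sign at both times. RAB6B and RAB15 were common to 48 and 144 h (22.2% and 50% of the lists), and no gene was common to 24 and 144 h. Calls at any, all or no times and these overlaps were not counted over all genes tested. Whether they are particular to RAB genes was therefore not tested. Arrays of mir-429 and control did not overlap for 16, 12 and 17 of the 47 members at 24, 48 and 144 h (34.0%, 25.5% and 36.2%), against 40.4%, 29.0% and 33.9% of all genes tested.

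**Figure D1:**
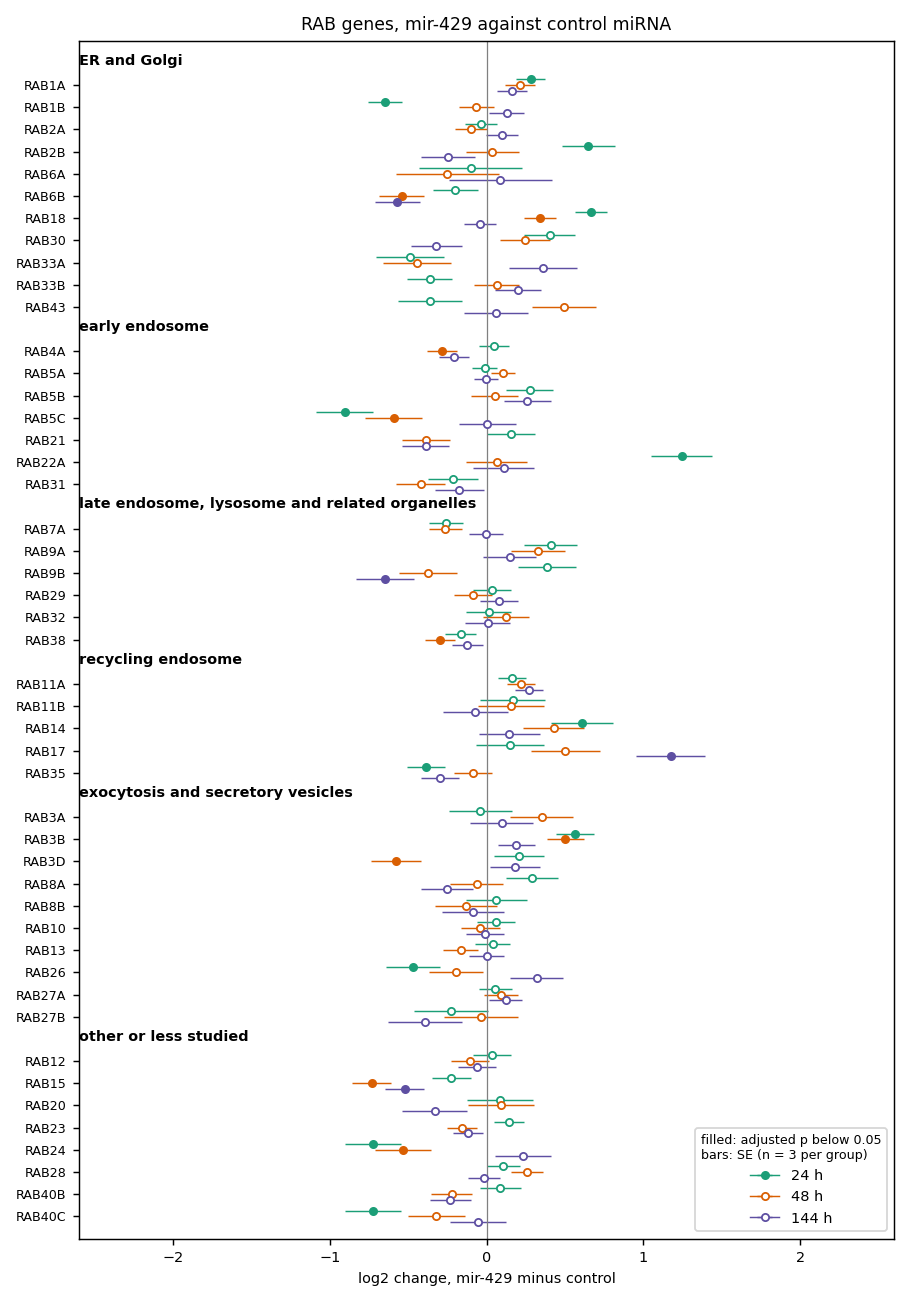
Log2 change of 47 RAB genes, mir-429 minus control (x axis), by compartment (y axis) at 24, 48 and 144 h. Points are fitted differences with SE bars (n = 3 per group) and are filled where the adjusted p was below 0.05; filled points lie on both sides of 0 at 24 h, and RAB22A at 24 h is at 1.24. The point of RAB17 at 144 h is the fitted value against control arrays below the array median, where the text gives a bound of 0.39.

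Averaged over the 3 times, 8 RAB genes rose and 10 fell with mir-429 (38.3% of 47, against 28% of all genes tested, 12.6% higher and 15.4% lower). The median change of the members was -0.04 and that of all genes -0.02. Among the 4 rises named by fitted size were those of RAB22A at 0.47 ± 0.11, RAB3B at 0.42 ± 0.07 and RAB14 at 0.39 ± 0.11. The fourth, RAB17, was fitted at 0.61 ± 0.13, but its control values partly lay below the array medians, and with them raised to the median the average was 0.27. The 4 largest falls were those of RAB5C at -0.50 ± 0.10, RAB15 at -0.49 ± 0.07, RAB6B at -0.44 ± 0.08 and RAB40C at -0.37 ± 0.10. RAB14 and RAB40C, as means of probe sets, were at 0.01 and -0.09 (adjusted p = 0.936 and 0.382), and with the 3'-5' covariate at 0.28 and -0.24 (adjusted p = 0.12 and 0.125). RAB1A, RAB11A and RAB18 also rose, and RAB7A fell by 0.18 ± 0.06 (limma adjusted p = 0.0422); that last call was lost when any of 13 of the 18 arrays was left out, with adjusted p up to 0.0935 without control replicate 3 at 144 h.

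Early endosomes are marked by RAB5 proteins, which drive fusion of endocytic vesicles, and RAB22A acts between early and recycling endosomes. RAB22A read 8.60, 9.33 and 8.36 in the control arrays at 24 h and 10.26, 9.97 and 9.79 in the mir-429 arrays. All mir-429 arrays were above all control arrays, and the untransfected arrays, at 9.74, 9.94 and 10.10, overlapped the mir-429 range. The difference was 1.24 ± 0.19 (limma adjusted p = 0.000167), the largest rise of any RAB gene at 24 h. With the 3'-5' covariate it was 0.95 (adjusted p = 0.0644). By 48 h the groups overlapped, with control at 9.32, 9.75 and 9.53 and mir-429 at 9.59, 9.72 and 9.48. At 144 h they overlapped again (0.11 ± 0.19, adjusted p = 0.829). The effect of mir-429 on RAB22A changed between 24 and 48 h by -1.18 ± 0.27 (limma adjusted p = 0.0229). Across the family 3 members passed that test of a change from 24 to 48 h, 6.38% against 4.89% of all genes (1 higher against 1.75%, 2 lower against 3.14%). The other 2 probe sets of RAB22A, above the median on all arrays, were still at 0.67 and 0.32 at 48 h, and their effect changed by 0.05 and -0.20. The mean of the 3 changed by -0.44 (adjusted p = 0.197). The call for RAB22A was lost without control replicate 1 or 3 or mir-429 replicate 1 at 24 h, and without control replicate 2 or mir-429 replicate 3 at 48 h (adjusted p from 0.0502 to 0.073).

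RAB5C, the third of the RAB5 genes, went the other way. It read 9.99, 9.17 and 9.93 in control and 8.74, 8.82 and 8.82 in mir-429 arrays at 24 h, without overlap. The untransfected arrays were at 8.86, 9.08 and 8.81, close to the mir-429 arrays and below every control array. The difference was -0.91 ± 0.18 (limma adjusted p = 0.00132) and, with the 3'-5' covariate, -0.91 (adjusted p = 0.0726). At 48 h control arrays read 8.66, 8.08 and 8.66 and mir-429 arrays 7.67, 8.01 and 7.93, a difference of -0.59 ± 0.18 (adjusted p = 0.0266). The 48 h call was lost without control replicate 1 or 3 or mir-429 replicate 1 (adjusted p = 0.0975, 0.0949 and 0.107). Averaged over probe sets, the differences were -0.50 at 24 h and -0.37 at 48 h (adjusted p = 0.0092 and 0.0515). At 144 h the groups overlapped, between 8.94 and 9.09. RAB5A did not share the pattern of RAB5C. It lay between 11.02 and 11.24 on all 21 arrays, and its mir-429 differences were -0.01, 0.11 and -0.00, with 95% intervals of -0.17 to 0.15, -0.06 to 0.27 and -0.17 to 0.16. RAB4A, a gene of fast recycling from early endosomes, fell at 48 h by 0.29 ± 0.10 (limma adjusted p = 0.0425); it lay outside the rule for named genes and was chosen after its values were seen. Leaving out any 1 of the 6 arrays ended that call (adjusted p from 0.0558 to 0.117). Another RAB4A probe set, dimmer but above the median on all arrays, was at -1.26, -1.48 and -0.63 at the 3 times, where the brightest was at 0.05, -0.29 and -0.21. The mean of the probe sets at 48 h was -0.69 (adjusted p = 0.00102). Of the 7 early endosome genes tested, 1 rose and 1 fell at 24 h, 2 fell at 48 h, and at 144 h 0 passed in limma (2 at an unadjusted p below 0.05, both lower). Their shares of 28.6%, 28.6% and 0% stood beside 26.6%, 20.6% and 5.85% of all genes.

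**Figure D2:**
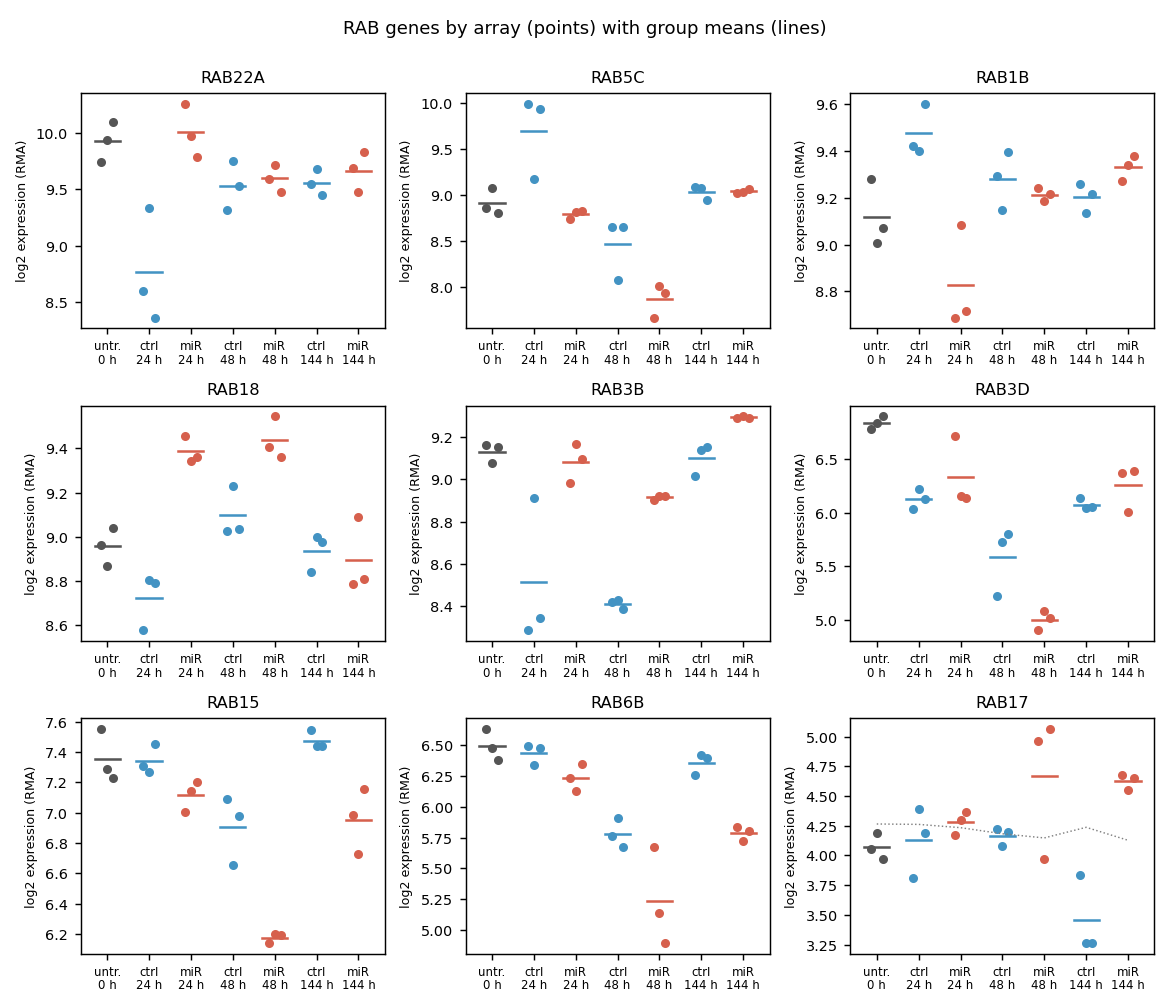
Log2 expression (y axis, RMA) of 9 RAB genes on each array by group (x axis; untr., untransfected; ctrl, control miRNA; miR, mir-429), with points for arrays and lines for group means of 3. The 24 h control arrays lie apart from the mir-429 and untransfected arrays of RAB22A and RAB5C, the mir-429 arrays at 48 and 144 h lie lower for RAB15, and RAB17 lies near the array median (dotted) except in mir-429 arrays at 48 and 144 h and control arrays at 144 h.

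Of 11 Rab genes of the endoplasmic reticulum and Golgi tested, 3 were higher and 1 lower at 24 h (36.4%, against 26.6% of all genes). RAB18, known on lipid droplets and in the endoplasmic reticulum, read 8.57, 8.80 and 8.79 in control and 9.45, 9.35 and 9.36 in mir-429 arrays, and untransfected arrays lay between, at 8.96, 8.86 and 9.04. Its difference was 0.67 ± 0.10 (limma adjusted p = 0.000152) at 24 h and 0.34 ± 0.10 (adjusted p = 0.0252) at 48 h. At 48 h the groups still did not overlap, with control at 9.03, 9.23 and 9.04 and mir-429 at 9.41, 9.55 and 9.36, and by 144 h they did (-0.04 ± 0.10). The gene's other probe sets did not all follow. The mean over its probe sets differed by 0.13 at 24 h and by -0.02 at 48 h (adjusted p = 0.529 and 0.933). The 48 h call was also lost without control replicate 1 or 3 or mir-429 replicate 2 (adjusted p = 0.0773, 0.0707 and 0.101).

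RAB1A and RAB1B, which share their role in transport from the endoplasmic reticulum to the Golgi, moved oppositely at 24 h. RAB1A rose by 0.28 ± 0.09 (limma adjusted p = 0.0318), with control at 12.10, 12.19 and 12.05 and mir-429 at 12.44, 12.45 and 12.31. That call was lost without control replicate 1 or 3 or mir-429 replicate 1 or 2 (adjusted p from 0.0732 to 0.115), whereas the average over the 3 times, 0.22 ± 0.05, kept its call without every array in turn. RAB1B fell by 0.65 ± 0.11 (adjusted p = 0.000341). Its control arrays, at 9.42, 9.40 and 9.60, were above the untransfected arrays at 9.28, 9.01 and 9.07, and 2 of the 3 mir-429 arrays, at 8.69, 9.08 and 8.72, were below them. At 48 h RAB1B read 9.29, 9.15 and 9.39 in control and 9.24, 9.19 and 9.21 in mir-429 arrays, so the groups overlapped. The change of the effect from 24 to 48 h was 0.58 ± 0.15 (limma adjusted p = 0.0376), a call lost without control replicate 1 or 3 or mir-429 replicate 1 or 3 at 24 h, control replicate 2 at 48 h or any mir-429 array at 48 h (adjusted p from 0.0545 to 0.109). RAB2B, a Golgi paralogue of RAB2A, rose at 24 h by 0.65 ± 0.17 (adjusted p = 0.00892), from 7.73, 7.81 and 7.43 to 8.60, 8.18 and 8.14. Without control replicate 3 or mir-429 replicate 1 its adjusted p was 0.0582 or 0.0625, and with the 3'-5' covariate the difference was 0.23 (adjusted p = 0.659).

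RAB6B, a Golgi Rab best known from neurons, fell later. It read 5.76, 5.91 and 5.67 in control and 5.67, 5.14 and 4.90 in mir-429 arrays at 48 h, where the highest mir-429 array met the lowest control array. The difference was -0.54 ± 0.14 (limma adjusted p = 0.011), and -0.37 (adjusted p = 0.0728) without mir-429 replicate 3. At 144 h control arrays read 6.25, 6.42 and 6.40 and mir-429 arrays 5.84, 5.72 and 5.80. The groups were apart by -0.57 ± 0.14 (adjusted p = 0.0225), and every single array but control replicate 1, when left out, ended the call (adjusted p from 0.051 to 0.101). As the mean of probe sets the 144 h difference was -0.20 (adjusted p = 0.516). RAB6A, the ubiquitous Golgi member, has other probe sets that are shared with RAB6D. Its own probe set lay above the median on 8 of 21 arrays, so no level of RAB6A is described.

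Recycling endosomes return membrane to the cell surface, and RAB11A, RAB17 and RAB25 are their Rabs with a known role in polarised epithelial cells. RAB17 was dim. Its probe set lay above the array median on 9 of 21 arrays, and array medians lay between 3.95 and 4.29. Untransfected arrays read 4.05, 4.19 and 3.97. With mir-429, RAB17 read 4.17, 4.30 and 4.37 at 24 h, 4.97, 3.97 and 5.07 at 48 h and 4.68, 4.55 and 4.65 at 144 h. Control arrays read 3.81, 4.39 and 4.19, then 4.22, 4.08 and 4.20, then 3.83, 3.27 and 3.26. The groups overlapped at 24 and 48 h and were apart at 144 h, where the control arrays were also below the untransfected ones. The fitted difference at 144 h was 1.17 ± 0.22 (limma adjusted p = 0.00364). Because the control mean lay below the array medians, the rise is given as at least 0.39, with control values raised to the median. The 144 h call held without each array in turn (adjusted p up to 0.0275). RAB17 passed the filter on low values mainly through mir-429 arrays, which gave 7 of its 9 values above the median, so its adjusted p is no independent support. Without the filter the adjusted p was 0.0062, and the stricter filter left RAB17 out. RAB25, a close relative of RAB11A named for its epithelial expression, lay below the array median on all 21 arrays. It read between 1.71 and 2.89, and no test was made of it.

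The E-box letters CACCTG and their reverse complement CAGGTG are the motif to which ZEB1 and ZEB2 bind. They were searched on both strands in RefSeq promoters of 300 bases, from 250 before to 50 after the gene start (GRCh38.p14). Of 45 RAB genes with such a promoter, 11 had at least 1 match, and 11 of their 64 promoters (17.2%) did, against 20.6% of 35116 promoters of all genes. RAB2B, RAB3B, RAB4A, RAB5B, RAB5C, RAB18, RAB22A, RAB27A and RAB30 had 1 match each. RAB17 had 3 matches, the most of these 45 genes, and RAB25 had 2. Their 250 bases before the gene start are shown with the motif in capitals. Both have a known role in polarised epithelial cells, and RAB17 passed the filter on low values while RAB25 did not. RAB11A, also named above for such a role, had 0 matches. RAB17 lies at chr2:237590735-237590984 on the minus strand and RAB25 at chr1:156060910-156061159 on the plus strand.
RAB17: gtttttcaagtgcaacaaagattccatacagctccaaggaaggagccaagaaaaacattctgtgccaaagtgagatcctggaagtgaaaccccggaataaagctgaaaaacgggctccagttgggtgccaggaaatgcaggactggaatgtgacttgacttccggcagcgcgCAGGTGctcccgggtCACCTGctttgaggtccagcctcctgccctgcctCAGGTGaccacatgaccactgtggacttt
RAB25: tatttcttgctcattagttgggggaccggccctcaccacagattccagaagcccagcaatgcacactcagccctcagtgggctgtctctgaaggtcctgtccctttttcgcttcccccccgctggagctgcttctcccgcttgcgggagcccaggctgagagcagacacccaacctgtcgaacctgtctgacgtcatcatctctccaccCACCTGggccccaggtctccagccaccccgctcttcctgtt
In RAB17 the 3 matches begin 78, 63 and 29 bases before the gene start. In RAB25 the match shown begins 41 bases before it, and the second lies after the gene start. A match describes these letters and no binding was measured.

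RAB11A, the ubiquitous recycling Rab, was higher with mir-429 at all 3 times on its brightest probe set. It read 11.58, 11.44 and 11.64 in control and 11.69, 11.70 and 11.76 with mir-429 at 24 h, 11.56, 11.70 and 11.86 against 11.83, 12.02 and 11.92 at 48 h, and 11.53, 11.47 and 11.41 against 11.74, 11.76 and 11.72 at 144 h. The groups did not overlap at 24 and 144 h, and at 48 h they met. No single time passed the test (limma adjusted p = 0.193, 0.0967 and 0.0844), and the average of 0.22 ± 0.05 did (adjusted p = 0.00396), also without each array in turn. Its other 2 probe sets, above the median on all arrays, were at 1.05 and 0.52 at 24 h, 0.01 and 0.36 at 48 h and 0.05 and 0.21 at 144 h. The mean of the probe sets differed by 0.58 at 24 h (adjusted p = 0.00269). RAB14, of the Golgi and recycling endosomes, rose at 24 h by 0.61 ± 0.20 (adjusted p = 0.0271), from 9.07, 9.27 and 8.84 to 9.85, 9.57 and 9.59. The mean over its 3 probe sets differed by 0.09 (adjusted p = 0.705), and the call was lost without control replicate 1 or 3 or mir-429 replicate 1 (adjusted p = 0.0592, 0.13 and 0.116). RAB35, of fast endocytic recycling, fell at 24 h by 0.39 ± 0.12 (adjusted p = 0.025), from 7.04, 6.74 and 7.14 to 6.57, 6.63 and 6.56. That call was lost without control replicate 1 or 3 or mir-429 replicate 1 or 3 (adjusted p from 0.0668 to 0.132). The mean of probe sets differed by -0.03, and the covariate value was -0.21 (adjusted p = 0.875 and 0.594). Both sets of RAB35 arrays lay above the untransfected arrays at 6.20, 6.46 and 6.13.

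Of 6 late endosome and lysosome Rabs tested, 0 passed at 24 h in limma (2 at an unadjusted p below 0.05) and 1 was lower each at 48 and 144 h. These shares, 0%, 16.7% and 16.7%, stood beside 26.6%, 20.6% and 5.85% of all genes. RAB7A, the late endosome Rab, read 11.91, 11.88 and 11.95 in control and 11.56, 11.74 and 11.65 in mir-429 arrays at 24 h. These groups did not overlap, but the difference of -0.26 ± 0.11 did not pass (limma adjusted p = 0.083). It passed with either other scaling of the arrays (adjusted p = 0.0328 and 0.033), and the mean of its probe sets was 0.16 (adjusted p = 0.246). RAB38, of lysosome-related organelles such as melanosomes, fell at 48 h by 0.30 ± 0.10 (adjusted p = 0.0356), from 9.87, 9.81 and 10.05 to 9.69, 9.54 and 9.59. The call was lost without control replicate 1 or 3 or mir-429 replicate 2 or 3 (adjusted p from 0.0524 to 0.136). RAB9B, a relative of the late endosome Rab RAB9A, read 5.48, 5.75 and 5.55 in control and 4.68, 4.99 and 5.17 in mir-429 arrays at 144 h. The difference was -0.65 ± 0.19 (adjusted p = 0.0473). Its call was kept when mir-429 replicate 3 was left out and lost without any 1 of the other 5 arrays (adjusted p from 0.0774 to 0.202).

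RAB3 proteins, RAB26 and RAB27 proteins belong to regulated secretion. RAB3B rose at 24 and 48 h. At 24 h control arrays read 8.29, 8.91 and 8.35 and mir-429 arrays 8.98, 9.17 and 9.09, against 9.16, 9.08 and 9.15 in untransfected cells. At 48 h control arrays lay within 8.39 to 8.43 and mir-429 arrays within 8.90 to 8.92. Neither pair of groups overlapped, and the differences were 0.56 ± 0.12 and 0.50 ± 0.12 (limma adjusted p = 0.00202 and 0.0058). At 144 h the mir-429 arrays, from 9.29 to 9.30, again lay above the control arrays, from 9.02 to 9.15, with a difference of 0.19 ± 0.12 that did not pass (adjusted p = 0.418). The control arrays of RAB3B had fallen below the untransfected level at 24 h by 0.61 ± 0.12 and at 48 h by 0.72 ± 0.12. The 48 h difference kept its call under every alternative run. At 24 h the mean over the probe sets differed by 0.25 (adjusted p = 0.191).

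RAB3D changed its response with time. At 24 h control arrays read 6.04, 6.22 and 6.13 and mir-429 arrays 6.71, 6.16 and 6.13, with overlap. At 48 h they read 5.22, 5.72 and 5.80 against 4.90, 5.09 and 5.02, apart by -0.58 ± 0.16 (limma adjusted p = 0.0134; 0.0624 without control replicate 3). It was -0.19 as the mean of probe sets and -0.38 with the covariate (adjusted p = 0.219 and 0.124). At 144 h they read 6.13, 6.04 and 6.05 against 6.37, 6.01 and 6.39, with overlap. The effect changed by -0.78 ± 0.22 from 24 to 48 h (adjusted p = 0.0494) and by 0.76 ± 0.22 from 48 to 144 h (adjusted p = 0.0378). RAB3D was the 1 RAB gene called from 48 to 144 h, 2.13% of members against 9.47% of all genes (3.84% higher and 5.62% lower). The first call was lost without any of 9 of the 12 arrays, all but control replicate 2 and mir-429 replicate 3 at 24 h and control replicate 1 at 48 h (adjusted p from 0.0519 to 0.132). The second was lost without any of 10 of the 12, all but control replicate 1 at 48 h and mir-429 replicate 2 at 144 h (adjusted p from 0.0505 to 0.0867). RAB26 fell at 24 h by 0.47 ± 0.17 (adjusted p = 0.0491), a call that was lost without each of the 6 arrays in turn (adjusted p up to 0.222). Of the other secretory Rabs that were to be named in any case, RAB27A differed by 0.06, 0.09 and 0.12 at the 3 times (95% intervals of -0.17 to 0.28, -0.13 to 0.31 and -0.10 to 0.35). RAB27B differed by -0.23, -0.04 and -0.39, each ± 0.24, and RAB8A by 0.29, -0.06 and -0.25, each ± 0.17. None of these 9 differences passed the test.

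Among the less studied members, RAB15 fell at 48 and 144 h. It has been described at early and recycling endosomes, in neurons above all. At 24 h control arrays read 7.31, 7.27 and 7.45 and mir-429 arrays 7.01, 7.14 and 7.20, with a difference of -0.23 ± 0.12 that did not pass. At 48 h they read 7.09, 6.66 and 6.98 against 6.14, 6.20 and 6.19, and at 144 h 7.54, 7.44 and 7.44 against 6.98, 6.72 and 7.15. The mir-429 arrays were below all control arrays at each of the 3 times. The differences were -0.73 ± 0.12 and -0.52 ± 0.12 (limma adjusted p = 0.00036 and 0.0175). Both probe sets of RAB15 gave like values, -0.73 and -0.58 at 48 h and -0.52 and -0.48 at 144 h. The 48 h call held under every alternative, and the 144 h call was lost without any single array but mir-429 replicate 3 (adjusted p from 0.0503 to 0.104), and with the mean of probe sets or the covariate (adjusted p = 0.0632 and 0.0672). RAB24, associated with autophagy, fell at 24 h by 0.72 ± 0.18 (adjusted p = 0.00604), from 8.51, 8.92 and 8.89 to 7.79, 8.02 and 8.34. It fell at 48 h by 0.53 ± 0.18 (adjusted p = 0.0411), a call lost without any single array but control replicate 2 (adjusted p from 0.0614 to 0.138). Its untransfected arrays, at 8.54, 7.89 and 7.93, overlapped the mir-429 arrays of 24 h. With the 3'-5' covariate the 24 h difference was -0.20 (adjusted p = 0.692). RAB40C, whose protein carries a SOCS box for ubiquitin ligase assembly, fell at 24 h by 0.72 ± 0.18 (adjusted p = 0.00651), from 8.89, 8.21 and 8.79 to 7.75, 7.69 and 8.28. The ranges overlapped by 1 array, and the covariate value was -0.28 (adjusted p = 0.589). Averaged over its probe sets the difference was -0.18 (adjusted p = 0.303).

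Control cells were compared with untransfected cells to show how the reference arrays themselves moved. These comparisons share the control arrays with those above, and values are set side by side only. At 24 h, 7 RAB genes were higher and 10 lower in control cells (36.2% of 47, against 38% of all genes, 18.3% higher and 19.8% lower). At 48 h, 8 were higher and 17 lower (53.2% against 54.5%, 18.4% higher and 36.1% lower). At 144 h 0 were higher and 2 lower in limma (4.26% against 0.474%, 0.28% higher and 0.194% lower), and at an unadjusted p below 0.05 there were 1 higher and 8 lower. The median RAB change was -0.14, -0.10 and -0.09, and that of all genes 0.04, -0.16 and 0.02. With other scalings of the arrays the all-gene median at 48 h was -0.06 or -0.09. The largest rises at 24 h were those of RAB27B at 0.86 ± 0.24, RAB40C at 0.83 ± 0.18, RAB5C at 0.78 ± 0.18 and RAB35 at 0.71 ± 0.12. The largest falls were those of RAB8B at -1.32 ± 0.20, RAB22A at -1.16 ± 0.19, RAB26 at -1.01 ± 0.17 and RAB9B at -0.97 ± 0.19. Of these 8 genes, 6 held under all alternatives, and RAB27B and RAB40C were not among them. The other RAB8B probe set above the median on all arrays was at 0.61, and the mean of probe sets was -0.44 (adjusted p = 0.0195).

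Of 10 secretory Rabs tested, 6 were lower and 1 higher in control cells at 48 h (70%, against 54.5% of all genes, of which 36.1% were lower). The median of the 10 was -0.70, and 3 of them had a difference above 0. The called share was as high among the 7 early endosome Rabs (71.4%) and the 48 exchange factors (70.8%). In the other compartment and regulator lists it lay between 33.3% and 58.5%. RAB3A, the synaptic vesicle Rab, read 5.31, 5.32 and 5.02 in untransfected cells and 3.86, 3.0 and 3.63 in control cells at 48 h. The control mean lay below the array medians, so the fall is bounded at -1.04. RAB26 fell by 1.65 ± 0.17 and RAB3D by 1.25 ± 0.16. RAB31, of the trans-Golgi and endosomes, fell by 1.03 ± 0.16 on its brightest probe set. RAB32, of mitochondria and lysosome-related organelles, rose by 0.92 ± 0.14, RAB2A by 0.82 ± 0.10, RAB5B by 0.77 ± 0.15 and RAB2B by 0.59 ± 0.17 (adjusted p = 0.0563 for RAB2B without control replicate 2). These 48 h arrays were also those with the greatest loss of 5' signal. With that difference as a covariate 0 of 47 RAB genes passed in limma (16 at an unadjusted p below 0.05), and the members' median SE was 0.57 in place of 0.15. The covariate ran from 2.79 to 3.76 in untransfected and from 7.23 to 8.47 in these control arrays, so it cannot be told apart from the groups. The share of all genes called in that setting is not set beside the 0, which shows nothing particular to RAB genes. RAB3A and RAB3D were still lower at 144 h, by 0.94 ± 0.20 and 0.76 ± 0.16 (limma adjusted p = 0.0429 and 0.033). Neither call survived leaving out any 1 array of the 2 groups (adjusted p from 0.0663 to 0.244).

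**Figure D3:**
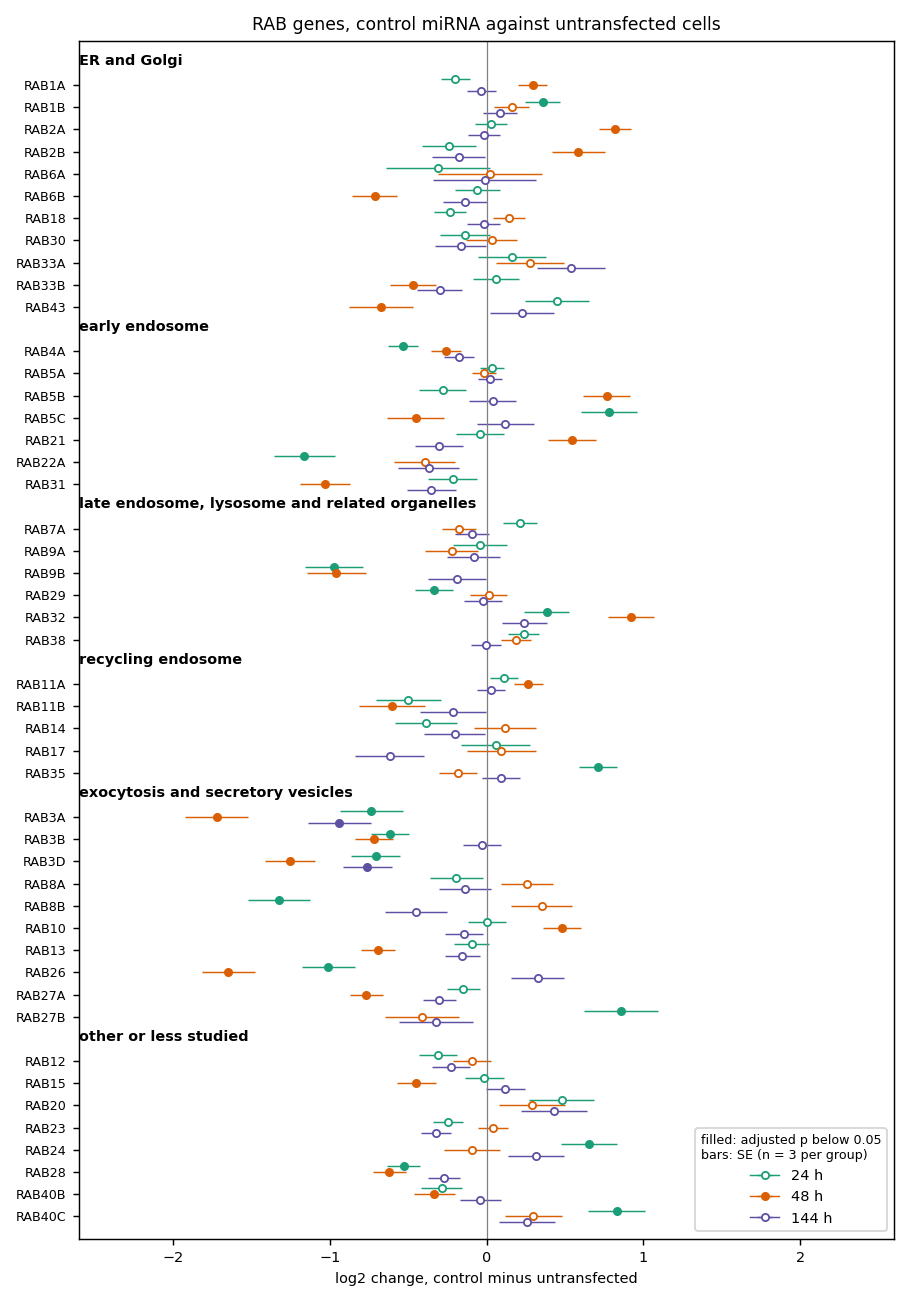
Log2 change of 47 RAB genes, control miRNA minus untransfected cells (x axis), by compartment (y axis) at 24, 48 and 144 h. Points are fitted differences with SE bars (n = 3 per group) and are filled where the adjusted p was below 0.05; 17, 25 and 2 genes are filled at the 3 times, and the 2 filled at 144 h are RAB3A and RAB3D.

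For 9 of the 12 RAB genes called at 24 h the mir-429 mean was nearer than the control mean to the untransfected mean. The median distance from the untransfected mean was 0.174 for mir-429 and 0.634 for control. The mir-429 arrays overlapped the untransfected arrays for 8 of the 12 and the control arrays for 3. For the 35 members not called at 24 h, the mir-429 mean was nearer for 20, and the median distances were 0.274 and 0.236. At 48 h the mir-429 mean was nearer for 2 of the 9 genes called and at 144 h for 1 of 4. This description has no test, because being called already sets the 2 transfected groups apart. The same counts were not made over all genes, so whether they are particular to RAB genes was not tested.

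Different probe sets of a RAB gene often disagreed. For 25 members with at least 2 probe sets above the median on all 21 arrays (75 probe sets), the median range between probe sets of a gene was 0.52 at 24 h, 0.45 at 48 h and 0.31 at 144 h for mir-429 against control. For control at 48 h against untransfected cells it was 1.01, and 15 of the 25 genes had probe sets of opposite sign. RAB12 had the widest range there, 3.27. RAB31 was at -1.03 on its brightest probe set and at 0.64 and 1.36 on its other 2. RAB22A rose at 24 h on all 3 of its probe sets, by 1.24, 0.62 and 0.53. RAB5C was at -0.91 on its brightest and at -0.10 on its other probe set. These ranges are of the same order as many of the RAB differences given above.

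**Figure D4:**
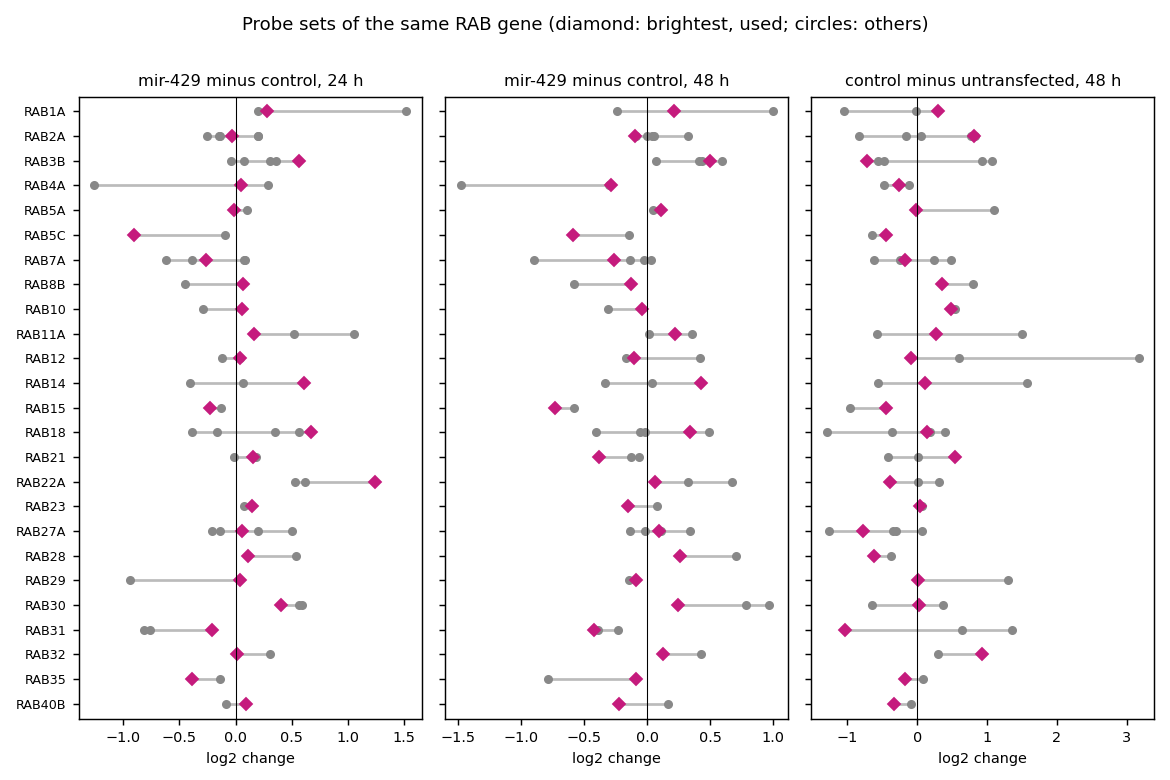
Log2 change (x axis) of each probe set of 25 RAB genes (y axis) for mir-429 minus control at 24 and 48 h and control minus untransfected cells at 48 h. Diamonds are the brightest probe sets, which represent the genes, circles the others, and grey lines span the range of a gene; the ranges are widest in the comparison with untransfected cells.

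Among the proteins that Rabs recruit, changes with mir-429 reached 2.32 at 24 h, against 1.24 among RAB genes. Of 41 effectors tested, 8 were higher and 12 lower with mir-429 at 24 h (48.8%, against 26.6% of all genes). At 48 h 7 were higher and 7 lower (34.1% against 20.6%) and at 144 h 2 and 1 (7.32% against 5.85%). With the 3'-5' covariate 7 of the 41 passed at 24 h, when 4.77% of all genes did, and with the mean of probe sets 14 did. EXPH5, an effector of RAB27 proteins in exosome and vesicle secretion, had the smallest p of the list at each time. It read 6.39, 6.19 and 5.99 in control and 8.57, 8.44 and 8.53 in mir-429 arrays at 24 h, where untransfected arrays were at 7.29, 7.39 and 7.42. The mir-429 arrays were above and the control arrays below the untransfected level. The differences were 2.32 ± 0.12, 2.16 ± 0.12 and 1.06 ± 0.12 at 24, 48 and 144 h (limma adjusted p = 1.22e-09, 9.96e-10 and 5.84e-05). With the mean of its probe sets the 144 h value was 0.51 (adjusted p = 0.0814). RAB27A and RAB27B, as given above, did not pass at any time.

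Effectors of RAB11 and RAB5 moved in both directions. MYO5B, the motor that carries RAB11 and RAB8 vesicles along actin, read 5.28, 5.12 and 5.37 in control and 6.81, 6.65 and 7.0 in mir-429 arrays at 24 h. Its control arrays overlapped the untransfected arrays at 5.21, 5.19 and 5.43. It rose by 1.56 ± 0.18 at 24 h and 1.28 ± 0.18 at 48 h and was at -0.07 ± 0.18 at 144 h. Both rises kept their call without each array in turn. MYO5B was not among the genes that held under all alternatives, a list that also leaves out genes untested in a setting. RAB11FIP1, a RAB11 adaptor, lay below the array medians in control arrays, at 3.29, 3.83 and 3.29 at 24 h, and at 5.50, 5.17 and 5.18 in mir-429 arrays. Its rise was at least 1.02 at 24 h and at least 0.73 at 48 h. The related RAB11FIP2 and RAB11FIP3, named after their values were seen, fell. RAB11FIP2 read 8.25, 8.27 and 7.94 in control and 7.33, 7.43 and 7.43 with mir-429 at 24 h. It fell by 0.75 ± 0.11 there and by 0.76 ± 0.11 at 48 h (limma adjusted p = 0.000135 and 0.000115). Its control arrays overlapped the untransfected arrays at 8.10, 8.28 and 8.19, and at 144 h the difference was 0.03 ± 0.11. RAB11FIP3 fell by 1.10 ± 0.18 and 1.09 ± 0.18, with -0.60 (adjusted p = 0.141) at 24 h with the covariate. APPL1, a RAB5 effector on signalling endosomes, read 8.17, 8.17 and 7.46 in control and 9.56, 9.22 and 9.29 in mir-429 arrays at 24 h, with untransfected arrays at 9.14, 9.36 and 9.14. It differed by 1.42 ± 0.16, 1.04 ± 0.16 and 0.01 ± 0.16 at the 3 times. At 144 h RILPL1, of primary cilia, was at 0.44 ± 0.12 and the RAB3 effector RIMS2 at -0.33 ± 0.09 (adjusted p = 0.0375 and 0.0403), and each of these calls was lost without any 1 of the 6 arrays (adjusted p from 0.052 to 0.148).

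**Figure D5:**
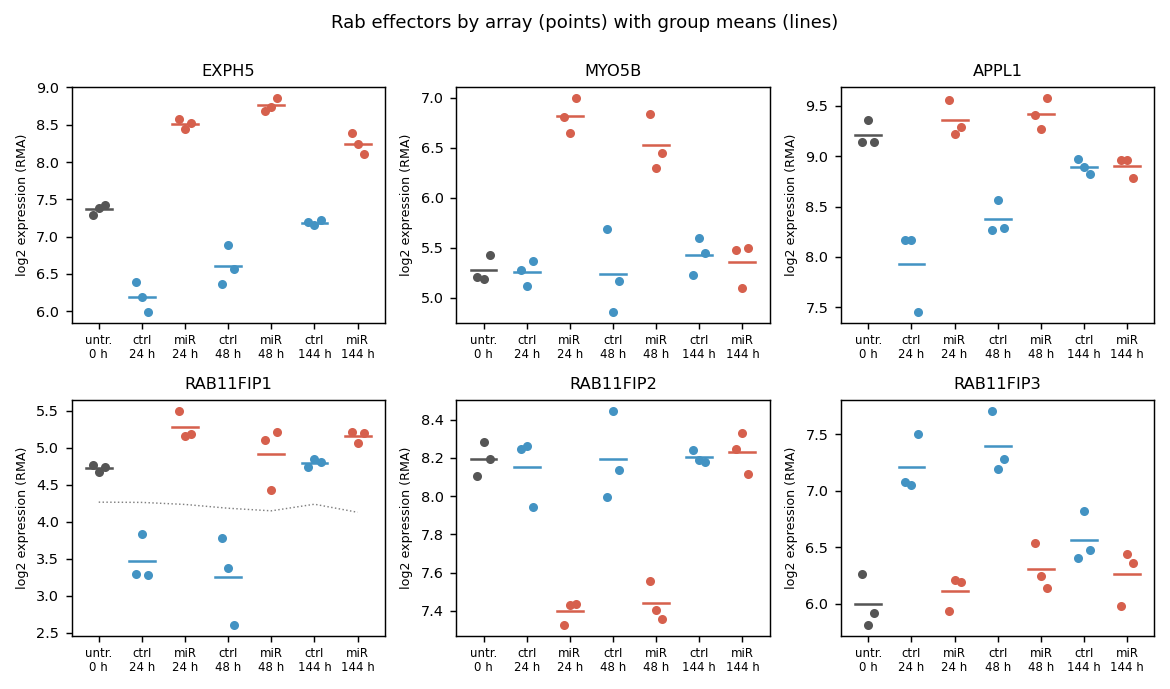
Log2 expression (y axis, RMA) of 6 Rab effectors on each array by group (x axis; untr., untransfected; ctrl, control miRNA; miR, mir-429), with points for arrays and lines for group means of 3. EXPH5 differs at all 3 times, whereas MYO5B and RAB11FIP2 differ at 24 and 48 h and overlap at 144 h; the dotted line is the array median.

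Of 48 exchange factors tested, 6 were higher and 7 lower with mir-429 at 24 h, 8 and 9 at 48 h and 1 and 1 at 144 h (27.1%, 35.4% and 4.17%, against 26.6%, 20.6% and 5.85% of all genes). At 24 h GAPVD1, an exchange factor for RAB5 proteins and RAB31, rose by 1.04 ± 0.14, C9orf72, part of a complex that acts on RAB8A and RAB39B, by 1.16 ± 0.18 and RAB3IP, also called Rabin8, by 0.64 ± 0.11. With the mean of probe sets C9orf72 was at 0.23 (limma adjusted p = 0.214). At 48 h DENND5B, of the RAB39 and RAB6 binding DENN family, fell by 1.29 ± 0.17 and SBF1, a myotubularin with a DENN domain, by 0.63 ± 0.12, and DENND2D, of the RAB9 exchange factors, rose by 1.12 ± 0.19. SBF1 was at -0.11 (adjusted p = 0.457) with the mean of probe sets. At 144 h DENND3, which acts on RAB12, rose by 0.75 ± 0.14. TRAPPC10, of the TRAPPII complex for RAB1 and RAB11 proteins, fell by 0.88 ± 0.23 (adjusted p = 0.0276), a call lost without any single array but mir-429 replicate 3 (adjusted p from 0.0581 to 0.124).

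Of 36 GTPase-activating proteins, 3 were higher and 6 lower at 24 h, 4 and 3 at 48 h and 0 and 2 at 144 h by limma. Their shares of 25%, 19.4% and 5.56% lay near the 26.6%, 20.6% and 5.85% of all genes. At 144 h, 4 had an unadjusted p below 0.05, all lower. TBC1D19 rose by 0.49 ± 0.08 at 24 h, from 6.54, 6.54 and 6.64 to 7.04, 6.98 and 7.16, and fell by 0.30 ± 0.08 at 144 h (limma adjusted p = 0.0365), a call lost without any single array but mir-429 replicate 3 (adjusted p from 0.0854 to 0.139). TBC1D9 rose by 0.86 ± 0.18 and TBC1D2 fell by 0.55 ± 0.14 at 24 h, and neither passed with the covariate (0.67 and -0.31). TBC1D2 also lost its call without mir-429 replicate 1 (adjusted p = 0.051). At 48 h RABGAP1L rose by 0.57 ± 0.10, TBC1D14, an autophagy regulator, rose by 0.46 ± 0.12 and EVI5, of RAB11, fell by 0.70 ± 0.19. With the mean of probe sets RABGAP1L and EVI5 were at 0.16 and -0.19 and did not pass. TBC1D14 lost the call without control replicate 1 or mir-429 replicate 2 (adjusted p = 0.0685 and 0.0599) and EVI5 without control replicate 2 or mir-429 replicate 3 (adjusted p = 0.07 and 0.0617). At 144 h TBC1D30 fell by 0.60 ± 0.12 (adjusted p = 0.00501). Of 6 genes for prenylation, escort and extraction of Rabs, 2 rose at 24 h, 0 passed at 48 h in limma (1 at an unadjusted p below 0.05, higher) and 1 fell at 144 h. These shares, 33.3%, 0% and 16.7%, stood beside 26.6%, 20.6% and 5.85% of all genes. The genes called were the escort protein CHML at 0.37 ± 0.10, the geranylgeranyl transferase subunit RABGGTB at 0.48 ± 0.14 and RABIF, a holdase of nucleotide-free Rabs, at -0.60 ± 0.12 (adjusted p = 0.00435). RABGGTB was at 0.06 (adjusted p = 0.895) and CHML at 0.29 (adjusted p = 0.316) with the covariate at 24 h. RABGGTB also lost its call without control replicate 3 or mir-429 replicate 2 (adjusted p = 0.111 and 0.0729), and RABIF kept its call under every alternative.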

How the data were processed

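The deposited values are log2 expression per probe set on 21 arrays, made by the authors with RMA per the submitters' processing notes, which name no version. Values spanned 0.75 to 14.97, and the medians of arrays 3.95 to 4.29. The lowest median was that of mir-429 replicate 1 at 144 h, and replicates 2 and 3 of that group were at 4.225 and 4.209. The platform annotation gave 1 symbol to 41097 of 54675 probe sets, several to 1801 and none to 11777. No further scaling was applied. The number of arrays limits the precision.

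All 12879 genes were fitted with limma 3.58.1 in R 4.3.3 (lmFit, eBayes; 7 group means, 14 residual degrees of freedom, prior 3.93), two-sided, with Benjamini-Hochberg adjustment over all genes tested and a threshold of 0.05. There were 9 comparisons. A gene's SE pools its spread over all groups. Within-group SDs of array differences were 0.17 to 0.25 in untransfected and 0.39 to 0.47 in control arrays at 48 h, so SEs may be too small at 48 h. The script was tested on simulated data for the 24 h comparison, with 67, 67 and 66 of 12879 genes changed by 0.5, 1 and 2. It recovered 29.9%, 85.1% and 100% of these, and 12 of its 155 calls were false. Far fewer genes were changed there than the 3425 called at 24 h in the data, so these rates do not carry over to the data. Alternatives were 2 other scalings, no filter, a filter 1 above the median, the mean of a gene's probe sets, the 3'-5' covariate, only the arrays compared, no 48 h arrays, array weights, updated symbols, a replicate block and leaving out each array. Named RAB genes were those called: the 6 largest rises and falls at single times, 4 averaged, 3 for changes of effect, 4 for control, and RAB1A, RAB5A, RAB7A, RAB8A, RAB11A, RAB25, RAB27A and RAB27B always. Up to 3 regulators per list and time had the smallest p. Members and lists were chosen with earlier results of these data known.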

Additional observations from a re-analysis of the deposited data

Results flagged for a closer look

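The effect of mir-429 differed between times for 3 RAB genes, by a test of the difference itself (limma, adjusted over all genes tested). It changed from 24 to 48 h by -1.18 ± 0.27 for RAB22A (adjusted p = 0.0229), by -0.78 ± 0.22 for RAB3D (adjusted p = 0.0494) and by 0.58 ± 0.15 for RAB1B (adjusted p = 0.0376). The RAB22A value is that of its brightest probe set, and its other 2 probe sets changed by 0.05 and -0.20. From 48 to 144 h it changed by 0.76 ± 0.22 for RAB3D (adjusted p = 0.0378). None of the 4 held without each array in turn, and with the 3'-5' covariate they were -0.73, -0.23, 0.52 and 0.41, with adjusted p from 0.363 to 0.891. The arrays at 48 h had the greatest loss of 5' signal, and its part was examined only through that covariate. At 24 h the covariate did not overlap between mir-429 and control arrays, so RNA quality and mir-429 cannot be told apart there. With 3 arrays a group, no group was large enough to be searched for an outlying array.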

How the results depend on the processing

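Counts of RAB genes called are given in the order of the main setting and the alternative. These counts, and the leave-one-out counts below, stand without the shares of all genes called. They describe the settings and show no shift particular to RAB genes. With the covariate the share of all genes called with mir-429 also fell, as given above. For mir-429 against control at 24 h, the 12 calls became 3 with the covariate and 22 with array weights. At 48 h the 9 became 2 with only the arrays compared and 4 with array weights. At 144 h the 4 became 2 with cyclic loess, quantile scaling or the mean of probe sets, 1 with the covariate and 8 with array weights. For the change of effect from 24 to 48 h, the 3 became 1 without a filter or with the mean of probe sets, and 0 with only the arrays compared or the covariate (limma, 2 with the covariate at an unadjusted p below 0.05). From 48 to 144 h the 1 became 2 with cyclic loess. For control cells against untransfected cells, the 17 at 24 h became 11 with the covariate and 32 with array weights, and the 25 at 48 h became 0 with the covariate. The 2 at 144 h became 1 with cyclic loess, quantile scaling, the stricter filter or the mean of probe sets, 0 without a filter or with the covariate, 4 with only the arrays compared and 19 with array weights. The cause of these moves was not tested. The estimation of array weights stopped before its convergence tolerance was met in at least 1 fit.

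Leaving out each array in turn gave 7 to 14 calls at 24 h (7 without control replicate 3), 5 to 9 at 48 h (5 without control replicate 3), 1 to 3 at 144 h and 14 to 19 on average over times. It gave 0 to 5 for the change from 24 to 48 h, 0 to 2 from 48 to 144 h, and 14 to 19, 19 to 23 and 0 to 0 for control cells at the 3 times. Of the RAB genes named and called, 1 of 12 kept its call under all alternatives at 24 h (RAB1B), 2 of 9 at 48 h (RAB3B and RAB15), 0 of 4 at 144 h and 7 of 11 averaged. RAB1B has 1 probe set, so the mean of probe sets could not change its value. RAB17 at 144 h kept its call in each setting that tested it, and the stricter filter left it untested. For control cells 6 of 8 kept their call under all alternatives at 24 h, all but RAB27B and RAB40C, and 0 of 8 at 48 h.

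Directions turned for genes near 0 and for a few others. With cyclic loess the 144 h values were 0.012 for RAB5A, 0.0019 for RAB7A and 0.039 for MYO5B, and with quantile scaling 0.00 for RAB5A and 0.028 for MYO5B. With the mean of probe sets they were 0.025 for RAB5A and 0.16 for RAB7A at 24 h, -0.024 for RAB18 at 48 h, and 0.068 for RAB5A, -0.0031 for RAB27A and -0.14 for RAB11FIP2 at 144 h. RAB31 in control cells at 48 h was then at 0.32. With the covariate RAB8A was at -0.10 and 0.15 at 24 and 48 h, RAB3D in control cells at 48 h at 0.0075, and at 144 h RAB7A at 0.083, MYO5B at 0.080, APPL1 at -0.079 and RAB11FIP2 at -0.045. With array weights RAB27A was at -0.065 at 24 h and APPL1 at -0.017 at 144 h. When single arrays were left out, RAB5A ran from -0.053 to 0.031 at 24 h and from -0.036 to 0.035 at 144 h, RAB7A from -0.069 to 0.066, MYO5B from -0.17 to 0.060, APPL1 from -0.027 to 0.066 and RAB11FIP2 from -0.024 to 0.083 at 144 h. RAB27A ran from -0.015 to 0.12 at 24 h, RAB27B from -0.34 to 0.22 and RAB8A from -0.24 to 0.035 at 48 h, and RAB8A averaged from -0.069 to 0.046.

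Taken over all groups together, the replicate numbers showed no pairing of the samples. Deviations from group means of arrays with the same number correlated at a median of -0.02 over 63 pairs (from -0.41 to 0.31). Between mir-429 and control at 24 h these correlations were 0.28, 0.09 and 0.18. At 48 h they were -0.13, -0.08 and 0.09, and at 144 h 0.20, -0.06 and -0.04. Pairing within a single comparison was not tested apart from the block. With the number as a block, calls among RAB genes became 1 for the change from 24 to 48 h, 0 from 48 to 144 h and 1 for control cells at 144 h, and were within 1.5 times the main count in the other 6 comparisons.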
